A study of Homo sapiens with 12 samples.

Results

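The EGR transcription factors (EGR1, EGR2, EGR3 and EGR4) and their corepressors NAB1 and NAB2 were examined for chromatin accessibility in cancer cells in which MUC1 was silenced. The members were the 6 genes of this family, and their regions were all 100-bp bins of the deposited tables within 20 kb of any transcription start site (TSS) of a member in the GENCODE v44 annotation. This rule found 393 of 709366 bins in DU-145 cells and 383 of 472994 bins in BT-549 cells, of which 326 were present in both tables. All of them passed the filter on low values. ATAC-seq, which maps accessible DNA by where a transposase cuts it, was performed on DU-145 cells, a human castration-resistant prostate cancer line, and on BT-549 cells, a human triple-negative breast cancer line. Every group carried a tetracycline-inducible short hairpin RNA against MUC1 (tet-MUC1shRNA), and the groups were DU-145 with vehicle, DU-145 with doxycycline (DOX), BT-549 with vehicle and BT-549 with DOX. The vehicle was 0.1% DMSO, although the labels call the same cells untreated in another field, and the treatment lasted 7 days. Each group had 3 replicates of 50000 cells, 12 libraries in all, and a line with a control hairpin treated with DOX was not analysed here, so that the effects of the hairpin and of DOX itself cannot be told apart.

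EGR proteins are zinc-finger transcription factors encoded by immediate-early genes, which are switched on within minutes of a growth factor or stress signal without new protein synthesis. At the EGR1 promoter this signal is received through CArG boxes, which bind SRF together with the ETS-family factors ELK1 and ELK4 that MAP kinases phosphorylate. The EGR proteins bind a GC-rich site, activate or repress target genes, and recruit NAB1 and NAB2, which repress EGR-driven transcription. NAB2 is itself an EGR target and takes part in negative feedback.

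The promoter sequences, except that of EGR3, are shown because some of the accessibility changes below fall on or beside them. For genes with several annotated starts, 1 start is shown. They are RefSeq sequences (GRCh38.p14) 5′ to 3′ on the strand of the gene, from 250 bases upstream of the start to the start or to the first base annotated as untranslated, with motif matches in capitals. The motifs searched on both strands were the EGR site GCGNGGGCG, the AP-1 site TGANTCA, the CRE TGACGTCA, the ETS core CCGGAAG and the CArG box. Positions of matches count back from the start, with -1 as the base before it.
EGR1, chr5:138465229-138465478, + strand, 1 EGR site and 2 CArG boxes: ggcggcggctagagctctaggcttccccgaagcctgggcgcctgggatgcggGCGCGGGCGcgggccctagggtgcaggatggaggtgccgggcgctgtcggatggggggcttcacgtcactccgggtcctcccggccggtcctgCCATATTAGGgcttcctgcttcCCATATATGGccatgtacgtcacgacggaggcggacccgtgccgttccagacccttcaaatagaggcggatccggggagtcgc
EGR2, chr10:62816374-62816616, - strand, 1 CArG box: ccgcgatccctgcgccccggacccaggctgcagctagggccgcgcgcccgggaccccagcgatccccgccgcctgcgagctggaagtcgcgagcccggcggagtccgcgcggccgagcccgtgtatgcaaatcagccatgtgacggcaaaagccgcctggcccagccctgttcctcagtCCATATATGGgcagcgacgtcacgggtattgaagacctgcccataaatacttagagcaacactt
EGR4, chr2:73293702-73293798, - strand, no match: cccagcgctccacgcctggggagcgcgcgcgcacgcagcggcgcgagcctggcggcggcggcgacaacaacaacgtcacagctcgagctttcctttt
NAB1, chr2:190648645-190648894, + strand, 2 overlapping EGR sites on the other strand: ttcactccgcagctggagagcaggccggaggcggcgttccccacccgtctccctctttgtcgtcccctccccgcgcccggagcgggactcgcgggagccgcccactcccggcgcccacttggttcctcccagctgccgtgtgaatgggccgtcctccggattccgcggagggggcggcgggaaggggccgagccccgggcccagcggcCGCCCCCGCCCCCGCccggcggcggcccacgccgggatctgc
NAB2, chr12:57088864-57089093, + strand, 1 EGR site: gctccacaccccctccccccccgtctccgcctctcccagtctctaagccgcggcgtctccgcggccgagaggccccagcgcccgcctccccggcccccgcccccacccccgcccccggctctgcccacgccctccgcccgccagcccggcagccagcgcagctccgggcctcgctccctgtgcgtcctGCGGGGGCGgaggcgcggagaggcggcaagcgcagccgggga
The EGR1 matches began at -198 for the EGR site and at -105 and -83 for the CArG boxes. The EGR2 CArG box began at -71, and the NAB2 EGR site at -62. The NAB1 sequence ends at an alternative start, whereas distances at NAB1 below count from its main TSS at 190649083. The 250 bases upstream of that TSS held 3 EGR sites, beginning at -230, -224 and -175, of which the first 2 are those printed. Among the 35116 RefSeq promoters (250 bases upstream of each start), 8.41% held the EGR site, 1.16% a CArG box, 6.57% the AP-1 site, 1.65% the CRE and 8.52% the ETS core. A match is a description of the letters and not of a bound factor.

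A bin value is the fragment depth averaged over its 100 bases. The values of a library summed to between 12370094 and 24001285 in DU-145 vehicle cells, 16337380 and 25232000 in DU-145 DOX cells, 9142900 and 13606129 in BT-549 vehicle cells and 2502510 and 3267024 in BT-549 DOX cells. Levels below are coverage in CPM, the bin value scaled to a common library sum. A bin was called opening or closing at an adjusted p under 0.05 in edgeR's quasi-likelihood test over all bins of the line. Scaling by library sums put the median log2 fold change at 0.20 over all DU-145 bins and -0.06 over all BT-549 bins, and at -0.17 and 0.10 over all promoters. TMM factors moved these medians to 0.07 and -0.06 for bins and to 0.00 in both lines for promoters. With TMM factors, the share of opening among called bins went from 65.9% to 54.4% in DU-145, and that of higher among called promoters from 17.5% to 49.0% in DU-145 and from 73.6% to 54.1% in BT-549 cells. The MUC1 promoter itself is no check of the hairpin, which acts on the mRNA; its coverage was 52.1 ± 2.40 with vehicle and 39.6 ± 2.43 with DOX in DU-145 (SD, n = 3; log2 fold change -0.39, adjusted p = 0.000353), and 106 ± 10.1 and 87.9 ± 1.57 in BT-549 cells (-0.28, adjusted p = 0.0525). All 6 epithelial markers (EPCAM, CDH1, KRT8, KRT18, ESRP1 and GRHL2) had promoter bins in DU-145 but only 2 of 6 in BT-549 cells, where CDH1, EPCAM, KRT8 and KRT18 had none, whereas 5 of 6 mesenchymal markers (VIM, ZEB1, CDH2, FN1, SNAI2 and COL6A1; CDH2 had none) and 6 of 6 had them. The summed coverage of the epithelial markers ranged from 311 to 329 with vehicle and from 326 to 367 with DOX in DU-145, and from 23.3 to 27.1 and from 35.1 to 42.0 in BT-549 cells. That of the mesenchymal markers ranged from 231 to 248 and from 205 to 222 in DU-145, and from 367 to 403 and from 458 to 528 in BT-549 cells. Of 4 leukocyte markers, 2 had promoter bins in DU-145 (CD3E and SPI1 had none) and 0 in BT-549 cells, and the summed coverage of those 2, PTPRC and CD79A, ranged from 6.23 to 7.43 with vehicle and from 17.6 to 18.6 with DOX. Their part in the results below was not tested.

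In DU-145 cells, the called bins within 20 kb of the members were mainly closing with DOX, led by EGR1. Of the 393 bins, 155 (39.4%) were closing, where 11.8% of all bins were, and 7 (1.78%) were opening, where 22.8% of all bins were. These windows were drawn around TSSs, and of all promoters of the line 39.0% fell and 8.27% rose. The share of bins closing within 20 kb of a TSS of any gene was not tested. Closing bins numbered 88 of 111 at EGR1, 38 of 99 at NAB2, 17 of 53 at EGR2, 8 of 23 at NAB1, 4 of 52 at EGR3 and 0 of 55 at EGR4. Many of those counted at NAB2 and EGR2 lay at neighboring genes. At NAB2, 18 were in introns of NEMP1 and 13 past the transcript end, nearest to the TSS of STAT6. At EGR2, 7 lay past the transcript end, nearest to the TSS of ADO. In BT-549 cells, 31 of the 383 bins (8.09%) were closing and 12 (3.13%) were opening, where 5.91% and 5.03% of all bins were. Of these 31, 26 lay at EGR1 and 5 at NAB2, and the opening bins lay at NAB1 (4), EGR4 (3), NAB2 (3) and EGR3 (2). The opening counts were 4 in DU-145 cells without vehicle replicate 2, DOX replicate 2 or DOX replicate 3, and 7 in BT-549 cells without DOX replicate 3. Neighboring bins share fragments, so these counts are of adjoining windows and not of independent sites. At the stricter cutoffs of the study, a fold of at least 2 with an adjusted p under 1e-05 in DU-145 and 0.01 in BT-549 cells, 48 member bins were closing and 0 opening in DU-145, where 1.59% and 5.00% of all bins were, and 22 closing and 5 opening in BT-549 cells, where 2.87% and 2.07% of all bins were. Of the closing bins that met those cutoffs, 47 of 48 in DU-145 and 22 of 22 in BT-549 cells were at EGR1.

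**Figure D1:**
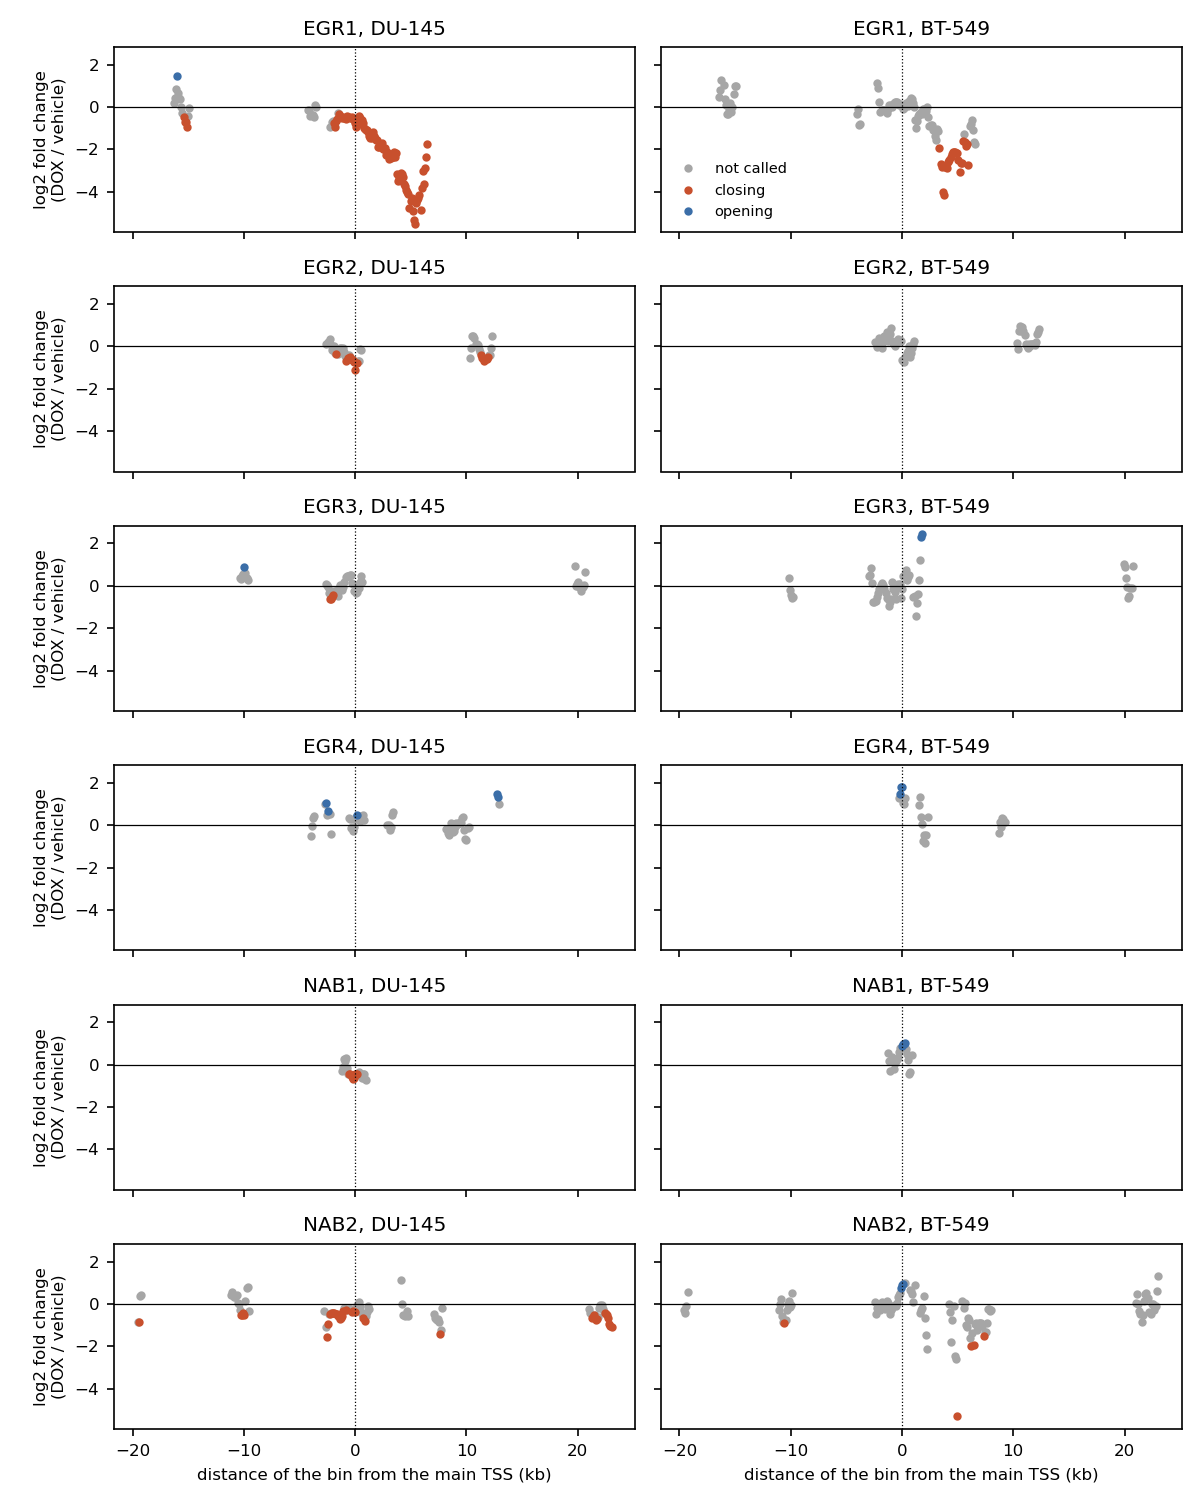
Log2 fold change (DOX over vehicle) of each 100-bp bin against its distance from the main TSS in kb, for the 6 genes (rows) in DU-145 (left) and BT-549 cells (right). Red bins were closing, blue bins opening and gray bins not called; the closing bins of EGR1 deepen downstream of the TSS in both lines, as at +4871 bp in DU-145 (-4.77) and +4271 bp in BT-549 cells (-2.49). The lowest BT-549 point of NAB2 (-5.29) came from 0, 0 and 0.42 fragments in the DOX libraries.

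EGR1, the best known activator of the family, was the member with the most closing bins in both lines. Its transcript runs from 138465479 to 138469303 on the + strand of chromosome 5. The loss was graded along the locus in DU-145 cells, and the deepest loss by segment mean lay in intergenic chromatin just past the transcript end in both lines. Mean coverage per bin upstream of the TSS (46 bins) was 6.46, 6.33 and 6.67 in vehicle libraries of DU-145 cells and 4.58, 4.60 and 4.60 in the DOX libraries, 1.41-fold lower. Inside the transcript (38 bins), it was 2.22, 2.68 and 2.71 with vehicle and 0.965, 1.18 and 1.17 with DOX, 2.29-fold lower, and all 38 bins were closing. Past the transcript end (27 bins), it was 2.71, 3.38 and 3.40 with vehicle and 0.191, 0.181 and 0.252 with DOX, 15.2-fold lower, and all 27 bins were closing. The vehicle and DOX libraries did not overlap in any of these 3 segments. The two-sided exact permutation test gave p = 0.1 for each, the smallest that 3 against 3 libraries can give. Such separation was not particular to EGR1. In DU-145 cells it also held in all 3 segments of EGR2 and of NAB2, inside EGR4 and upstream of NAB1. The groups overlapped in the other segments of EGR4 and NAB1 and in all 3 of EGR3. The share of all bins or promoters that separate in this way was not tested.

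The loss was narrower in BT-549 cells. Upstream of the EGR1 TSS, mean coverage per bin was 6.79, 6.98 and 6.61 with vehicle and 7.61, 7.61 and 6.52 with DOX, and the groups overlapped. Inside the transcript, it was 2.31, 2.16 and 2.19 with vehicle and 1.96, 1.84 and 1.63 with DOX, 1.23-fold lower, and 5 of 38 bins were closing. Past the transcript end, it was 4.24, 4.36 and 3.88 with vehicle and 1.07, 0.754 and 0.919 with DOX, 4.55-fold lower, and 21 of 28 bins were closing. The exact permutation p was 0.4 upstream and 0.1 in the other segments. All 26 closing bins of EGR1 in BT-549 were also closing in DU-145 cells. They ran from +3371 to +5971 bp from the TSS (chr5:138468801-138471500), 26 of the 106 EGR1 bins that both tables hold, whereas 0.903% of all bins tested in both lines were closing in both.

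**Figure D2:**
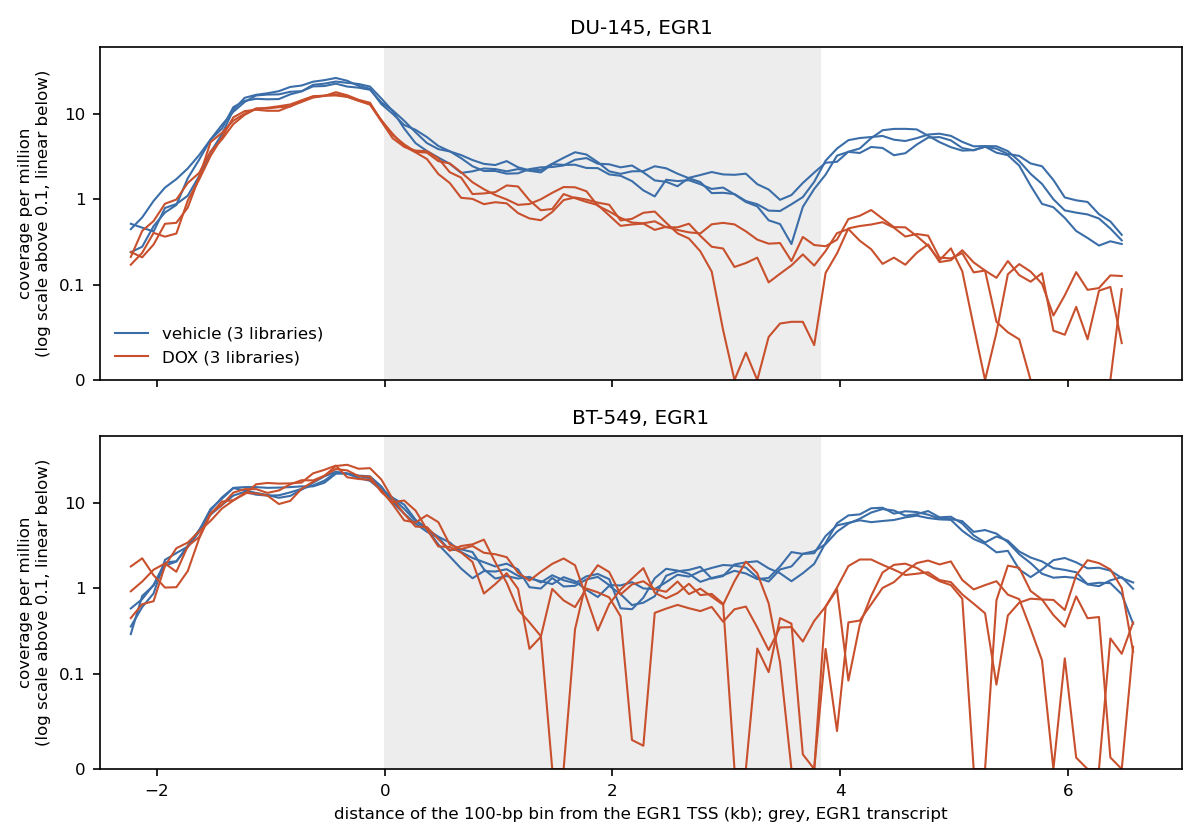
Coverage (CPM) of the 100-bp bins along EGR1 in each library, against distance from the TSS in kb (vehicle blue, DOX red, 3 libraries each; gray, the EGR1 transcript; the vertical axis is logarithmic above 0.1 and linear below). The vehicle libraries rise again past the transcript end, where the DOX libraries of both lines stay lower, and upstream of the TSS the groups separate in DU-145 but overlap in BT-549 cells.

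The closing bin of EGR1 with the smallest adjusted p in DU-145 cells lay at +4871 bp. Its sequence is shown with the bin on each side because it marks the center of the lost element (GRCh38, + strand, the bin itself in capitals).
EGR1 element, chr5:138470201-138470500: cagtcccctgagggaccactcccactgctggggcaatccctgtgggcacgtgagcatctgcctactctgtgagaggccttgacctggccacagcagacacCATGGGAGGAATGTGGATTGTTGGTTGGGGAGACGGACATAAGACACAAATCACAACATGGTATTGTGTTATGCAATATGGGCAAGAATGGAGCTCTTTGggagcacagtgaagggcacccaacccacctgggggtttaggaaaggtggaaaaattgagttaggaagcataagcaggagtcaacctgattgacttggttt
Coverage of this bin was 5.32, 5.83 and 4.65 in the vehicle libraries of DU-145 and 0.208, 0.185 and 0.194 in the DOX libraries. All DOX libraries were far below all vehicle libraries, with a log2 fold change of -4.77 ± 0.25 (SE) and an adjusted p of 7.40e-26. Of the 709226 bins tested, it ranked 58 by p-value, and 0.0283% of bins had a lower fold change. In BT-549 cells, the corresponding bin with the smallest adjusted p lay at +4271 bp, with coverage of 7.67, 8.60 and 5.92 with vehicle and 0.814, 0.651 and 2.17 with DOX. Again the groups did not overlap (log2 fold change -2.49 ± 0.33, adjusted p = 6.47e-10). The DOX libraries of BT-549 were shallower than the vehicle libraries, and this bin held mean fragment counts of 2.10, 1.63 and 7.09 in them. When all libraries of the line were thinned to the smallest total, an alternative chosen after the depths were seen, the log2 fold change was -2.61 and the adjusted p 7.86e-06, and 19 EGR1 bins were closing in both lines. No match to any of the 5 motifs lay between the transcript end and the last EGR1 bin of the DU-145 table, which says only that these letters are not in this stretch. The study places a putative AP-1 element of a distal EGR1 enhancer in the bin at +6371 bp, past the bins closing in both lines. That bin was closing in DU-145 but not in BT-549 cells. The study reports occupancy of this enhancer by MUC1-C, JUN and ARID1A. It also reports lower accessibility after MUC1-C silencing, at this enhancer and at a proximal EGR1 one, in both lines. Its evidence includes a nuclease assay. Upstream of the TSS, no bin was closing here in BT-549 cells. A search for the strict pattern TGANTCA does not exclude the putative AP-1 element.

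The peaks that the authors called in each library were also shorter with DOX. The peak over the EGR1 TSS ended at +6460, +6535 and +6464 bp with vehicle in DU-145 cells and at +2684, +2992 and +4996 bp with DOX. In BT-549 cells, it ended at +6880, +6558 and +7285 bp with vehicle and at +1144, +1108 and +825 bp with DOX. The extent of a called peak also moves with depth, and the BT-549 DOX libraries were the shallowest.

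At the EGR1 promoter itself, the change was smaller and differed between the lines. The bin with the highest coverage lay at -429 bp in both lines. Its coverage was 23.7, 22.4 and 26.1 with vehicle and 17.8, 16.8 and 16.3 with DOX in DU-145 cells, a log2 fold change of -0.50 ± 0.09 (adjusted p = 3.30e-06). In BT-549 cells it was 23.0, 21.8 and 22.5 with vehicle and 27.1, 26.8 and 24.7 with DOX. These values did not overlap either but did not pass the test (log2 fold change 0.22 ± 0.12, adjusted p = 0.232). Farther upstream, 15 bins of each line at -16429 to -14929 bp, nearer to the TSS of REEP2, held 1 opening and 4 closing bins in DU-145 and none called among 15 in BT-549 cells. The opening one, at -16029 bp, was at 0.262, 0.0962 and 0.177 with vehicle and 0.413, 0.390 and 0.509 with DOX (log2 fold change 1.45 ± 0.50, adjusted p = 0.0188), a low level, and missed the threshold without vehicle replicate 2 (0.240), without DOX replicate 3 (0.0723), after thinning (0.159) and with DESeq2 (0.262).

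The promoters of all 6 members were read as summed coverage of the bins within 1 kb of any TSS, and NAB1 was the only one called in both lines. In DU-145 cells, 4 of 6 fell and none rose, where 39.0% of 14775 promoters fell and 8.27% rose. In BT-549 cells, 2 of 6 rose and none fell, where 18.7% of 14050 promoters rose and 6.69% fell. The members not called by edgeR all had an unadjusted p of at least 0.0877. Sums cover different numbers of bins in different genes and are compared only between conditions. In bulk samples, fewer cells with an open site and less opening per cell cannot be told apart.

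**Figure D3:**
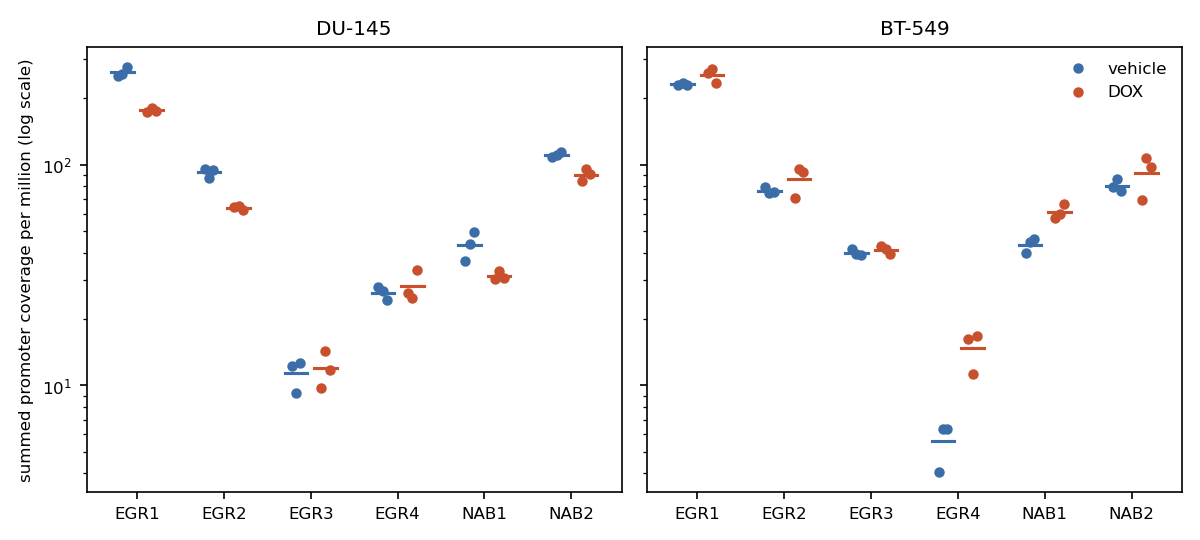
Summed promoter coverage (CPM) of the 6 genes in each library (points) with the mean of 3 libraries (short lines), vehicle in blue and DOX in red, on a logarithmic axis. In DU-145 cells the DOX libraries lie below all vehicle libraries for EGR1, EGR2, NAB1 and NAB2. In BT-549 cells they lie above them for EGR4 and NAB1. The share of all promoters that separate in this way was not tested.

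The EGR1 promoter was at 253, 256 and 276 with vehicle and 173, 180 and 175 with DOX in DU-145 cells (log2 fold change -0.57 ± 0.06, adjusted p = 3.94e-11). In BT-549 cells, it was at 230, 235 and 230 with vehicle and 261, 272 and 234 with DOX (0.14 ± 0.08, adjusted p = 0.205), and the groups overlapped.

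The EGR2 promoter, whose product is known for its role in myelination and hindbrain patterning, was at 95.8, 87.2 and 94.2 with vehicle and 64.0, 64.9 and 62.2 with DOX in DU-145 cells. It fell without overlap (log2 fold change -0.53 ± 0.08, adjusted p = 9.11e-08). In BT-549 cells, it was at 79.4, 74.3 and 75.2 with vehicle and 70.8, 95.7 and 92.7 with DOX (0.18 ± 0.12, adjusted p = 0.274), and the groups overlapped. The highest EGR2 bin lay at -184 bp in both lines, and the closing bin with the smallest adjusted p in DU-145 at -84 bp, where the CArG box printed above lies. That bin was at 13.4, 9.32 and 10.3 with vehicle and 6.60, 6.24 and 6.70 with DOX (log2 fold change -0.74 ± 0.11, adjusted p = 2.66e-07). The bin at -184 bp fell in DU-145 cells from 13.8 ± 2.21 to 8.64 ± 0.549 (adjusted p = 7.09e-07), and was at 9.17 ± 0.478 and 11.4 ± 0.991 in BT-549 cells (SD, n = 3; adjusted p = 0.280). No EGR2 bin was called in BT-549 cells, where 4 of 57 had an unadjusted p under 0.05 and DESeq2 also called 0. A separate accessible region at +10266 to +12365 bp, over the gene ADO, fell in DU-145 cells (log2 fold change -0.41 ± 0.09, adjusted p = 1.15e-04) and was at 0.23 ± 0.12 in BT-549 cells (adjusted p = 0.147).

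EGR3, known for its roles in muscle spindle development and T-cell tolerance, was not called at its promoter in either line. It was at 12.2, 9.25 and 12.7 with vehicle and 9.74, 14.4 and 11.7 with DOX in DU-145 cells, and at 41.5, 39.4 and 39.0 with vehicle and 42.7, 41.6 and 39.4 with DOX in BT-549 cells. The groups overlapped in both lines. The log2 fold change was 0.10 ± 0.16 in DU-145 (adjusted p = 0.647) and 0.04 ± 0.15 in BT-549 cells (adjusted p = 0.871), and its sign in BT-549 flipped with TMM factors. Summed within 3 kb of a start, it was -0.27 in DU-145 cells and passed the test (adjusted p = 0.0144). The accessible chromatin of EGR3 was centered upstream, with the highest bins at -1970 bp in DU-145 and -1870 bp in BT-549 cells, in an intron of ENSG00000253125. In DU-145 cells, the bin at -1970 bp was at 5.07, 4.88 and 5.99 with vehicle and 4.16, 3.30 and 4.11 with DOX (log2 fold change -0.45 ± 0.14, adjusted p = 6.75e-03; 0.0542 without vehicle replicate 3, 0.0912 without DOX replicate 2). The closing bin with the smallest adjusted p, at -2170 bp in an exon of ENSG00000289521, was at 4.35, 4.34 and 5.76 with vehicle and 2.78, 2.94 and 3.43 with DOX (-0.62 ± 0.15, adjusted p = 4.64e-04). The only opening EGR3 bin of DU-145 cells lay at -9970 bp, in an exon of ENSG00000287812, at 0.872, 0.599 and 0.852 with vehicle and 1.26, 1.53 and 1.17 with DOX (0.88 ± 0.26, adjusted p = 6.24e-03; 0.141 without vehicle replicate 2, 0.0632 without DOX replicate 2, 0.251 with DESeq2). The bin at -1870 bp in BT-549 cells was at 5.39, 6.76 and 5.93 with vehicle and 7.44, 5.90 and 5.31 with DOX (adjusted p = 0.955). A pair of adjoining bins inside EGR3 opened there. The one at +1830 bp, in an intron, was at 0.240, 0.339 and 0.411 with vehicle and 2.19, 0.871 and 2.14 with DOX (log2 fold change 2.43 ± 0.55, adjusted p = 6.93e-04). Its mean fragment counts were 3.27, 3.96 and 3.76 with vehicle and 5.66, 2.18 and 6.99 with DOX, whose libraries were shallower. The accessible region holding the pair was not called (0.40 ± 0.28, adjusted p = 0.306), and 1 EGR3 bin was opening in BT-549 cells after thinning.

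EGR4, an EGR factor required in male germ cells, gained accessibility at its promoter in BT-549 cells. The promoter was at 4.05, 6.38 and 6.36 with vehicle and 16.2, 11.3 and 16.7 with DOX, and every DOX library exceeded every vehicle library (log2 fold change 1.42 ± 0.29, adjusted p = 2.72e-04). Of all promoters in the line, 99.7% had a lower fold change. The 3 opening bins adjoined each other, at -202, -102 and -2 bp. The bin at -102 bp, with the smallest adjusted p, was at 0.929, 1.37 and 1.07 with vehicle and 2.64, 3.93 and 4.79 with DOX (1.79 ± 0.34, adjusted p = 3.36e-05). Its mean fragment counts were 12.64, 15.95 and 9.82 with vehicle and 6.81, 9.83 and 15.65 with DOX, whose libraries were shallower. After thinning, 1 EGR4 bin was opening in BT-549 cells, and 1 was without DOX replicate 3. The highest bin, at -202 bp, was at 1.58, 1.25 and 1.19 with vehicle and 3.69, 2.53 and 4.80 with DOX (1.48 ± 0.33, adjusted p = 7.05e-04), and missed the threshold when the libraries were thinned (adjusted p = 0.0673) and without DOX replicate 3 (adjusted p = 0.0862). In DU-145 cells, the EGR4 promoter was at 27.9, 26.7 and 24.3 with vehicle and 26.1, 24.9 and 33.2 with DOX (0.10 ± 0.12, adjusted p = 0.530), with overlapping groups. The highest bin there, also at -202 bp, was at 6.86, 6.16 and 6.30 with vehicle and 5.27, 4.50 and 6.39 with DOX (-0.26 ± 0.13, adjusted p = 0.111; 0.0145 with TMM factors, 0.0263 without DOX replicate 3). In the whole DU-145 window, 5 bins were opening and 0 closing, with mean levels of 2.47 or less (limma-trend also called 5 and 0); with TMM factors, 2 were opening and 3 closing, and with DESeq2 0 were called. The opening bin with the smallest adjusted p lay at +12798 bp in an intron of the neighbor FBXO41, at 0.232, 0.341 and 0.150 with vehicle and 0.518, 0.637 and 0.813 with DOX (1.32 ± 0.41, adjusted p = 7.76e-03; 0.0544 without DOX replicate 3, 0.235 after thinning).

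NAB1, which represses EGR activity, moved in opposite directions in the lines. Its accessible chromatin was a single region around the TSS, 23 bins in DU-145 and 22 in BT-549 cells. The promoter was at 36.8, 43.9 and 49.5 with vehicle and 30.2, 32.9 and 30.8 with DOX in DU-145 cells, and fell (log2 fold change -0.47 ± 0.10, adjusted p = 1.84e-04). It was at 39.8, 44.4 and 46.1 with vehicle and 57.4, 59.7 and 66.1 with DOX in BT-549 cells, and rose (0.50 ± 0.13, adjusted p = 5.32e-03). Neither pair of groups overlapped, and the rise missed the threshold without vehicle replicate 1 (adjusted p = 0.0581). The highest bin, at -333 bp, was at 5.19, 4.41 and 5.52 with vehicle and 3.78, 3.13 and 3.08 with DOX in DU-145 cells (-0.58 ± 0.14, adjusted p = 7.77e-04), and at 4.41, 4.02 and 4.15 against 5.56, 6.55 and 4.14 in BT-549 cells (0.32 ± 0.24, adjusted p = 0.474). The closing bin with the smallest adjusted p in DU-145 cells, at -233 bp, holds the overlapping EGR sites printed above, and was at 5.23, 4.40 and 4.90 with vehicle and 3.23, 2.86 and 2.80 with DOX (-0.70 ± 0.14, adjusted p = 6.15e-05). The opening bin with the smallest adjusted p in BT-549 cells lay on the other side of the TSS, at +67 bp, at 2.89, 3.27 and 3.12 with vehicle and 5.93, 6.70 and 5.73 with DOX (0.98 ± 0.25, adjusted p = 3.14e-03). After thinning it was at a log2 fold change of 0.50 (adjusted p = 0.455). All 4 DU-145 bins of NAB1 with an EGR site (17.4% of its 23 bins, where 1.24% of all bins held one) were closing, and 0 were opening, where 22.0% of the 8790 bins with such a site were closing and 3.79% opening. Of the DU-145 bins with the site at the other members, 3 of 3 at EGR1 and 3 of 5 at NAB2 were closing, and 0 of 3 at EGR2, 0 of 2 at EGR3 and 0 of 4 at EGR4. In BT-549 cells, 2 of the 4 NAB1 bins with an EGR site were opening and 0 closing, where 8.91% of the 8147 bins with one were opening and 1.26% closing. At NAB2, 1 of 5 was opening, and none was called at the other members.

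NAB2, the corepressor that EGR1 itself induces, lies beside NEMP1 and ends where STAT6 ends on the other strand. Its promoter was at 108, 111 and 114 with vehicle and 84.2, 95.9 and 90.3 with DOX in DU-145 cells (log2 fold change -0.30 ± 0.07, adjusted p = 3.79e-04); with TMM factors the value was -0.13 and the adjusted p 0.136. In BT-549 cells, it was at 79.6, 86.0 and 75.6 with vehicle and 69.2, 107 and 97.4 with DOX (0.18 ± 0.12, adjusted p = 0.292), and the groups overlapped; without DOX replicate 1 it passed the test (0.34, adjusted p = 0.0324). The highest bin of the window lay at -10164 bp in an intron of NEMP1. It was at 18.0, 14.8 and 16.6 with vehicle and 11.4, 11.1 and 11.7 with DOX in DU-145 cells (-0.51 ± 0.10, adjusted p = 1.10e-05), and at 12.2, 11.7 and 8.47 against 9.78, 14.0 and 12.4 in BT-549 cells (adjusted p = 0.718). The closing bin with the smallest adjusted p in DU-145 cells lay at -1364 bp, also within NEMP1, at 11.7, 11.2 and 12.5 with vehicle and 6.65, 7.94 and 6.90 with DOX (-0.70 ± 0.11, adjusted p = 1.48e-07). The 3 opening bins of BT-549 cells lay at -64, +36 and +136 bp, and the one at +36 bp was at 3.03, 3.44 and 2.85 with vehicle and 5.30, 7.30 and 5.26 with DOX (0.91 ± 0.25, adjusted p = 8.05e-03; 0.112 without DOX replicate 2, 0.103 after thinning).

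Around the adjoining 3′ ends of NAB2 and STAT6, accessibility was lower with DOX in both lines. The BT-549 region below spans both ends, whereas the DU-145 region and the single bin lie past the NAB2 transcript, over STAT6. The accessible region at +5387 to +8086 bp in BT-549 cells was at 1.37, 1.41 and 1.72 with vehicle and 0.669, 0.786 and 0.875 with DOX per bin (log2 fold change -0.94 ± 0.17, adjusted p = 1.60e-04). The region at +6987 to +7886 bp in DU-145 cells was at 0.393, 0.522 and 0.423 with vehicle and 0.254, 0.375 and 0.148 with DOX (-0.79 ± 0.27, adjusted p = 0.0117). Single bins there were less firm. The closing bin with the smallest adjusted p in BT-549 cells, at +6436 bp, was at 1.28, 1.88 and 2.78 with vehicle and 1.32, 0.136 and 0.435 with DOX, which overlap (-1.92 ± 0.59, adjusted p = 0.0175; 0.0815 without vehicle replicate 3, 0.163 without DOX replicate 2, 0.152 without DOX replicate 3, 0.140 with DESeq2, 0.111 after thinning). The region at the STAT6 promoter, +20987 to +23686 bp, fell in DU-145 cells (-0.69 ± 0.10, adjusted p = 6.27e-07) and was at 0.17 ± 0.14 in BT-549 cells (adjusted p = 0.384).

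The difference between the lines was tested directly as the interaction of line and DOX over 321390 shared bins, with levels scaled to the sum of these bins. Of the 326 member bins, 40 had a higher DOX effect in BT-549 than in DU-145 cells and 3 a lower one, where 4.94% and 10.6% of the shared bins did. With TMM factors, the share of higher among all called bins went from 31.8% to 42.2%. The 40 bins lay at EGR1 (20 of 106), NAB2 (7 of 86), NAB1 (6 of 22), EGR2 (4 of 51) and EGR4 (3 of 14), and the 3 lower ones at NAB2, over NEMP1; none of 47 EGR3 bins was called. Without BT-549 DOX replicate 2, 21 bins in place of 43 were called. At EGR1, these bins covered both the promoter, at -629 to +171 bp, and the center of the downstream element, at +4571 to +4971 bp and +5371 to +5571 bp. At +4871 bp, coverage was 7.07 and 0.286 in DU-145 and 8.01 and 1.71 in BT-549 cells with vehicle and DOX. Both lines lost coverage in this bin, and DU-145 lost more (log2 difference 2.40 ± 0.59, adjusted p = 1.95e-03). No bin from +3371 to +4471 bp passed the interaction test, with differences there from -2.06 to 1.30. At the highest promoter bin, -429 bp, the difference was 0.54 ± 0.15 (adjusted p = 6.32e-03).

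**Figure D4:**
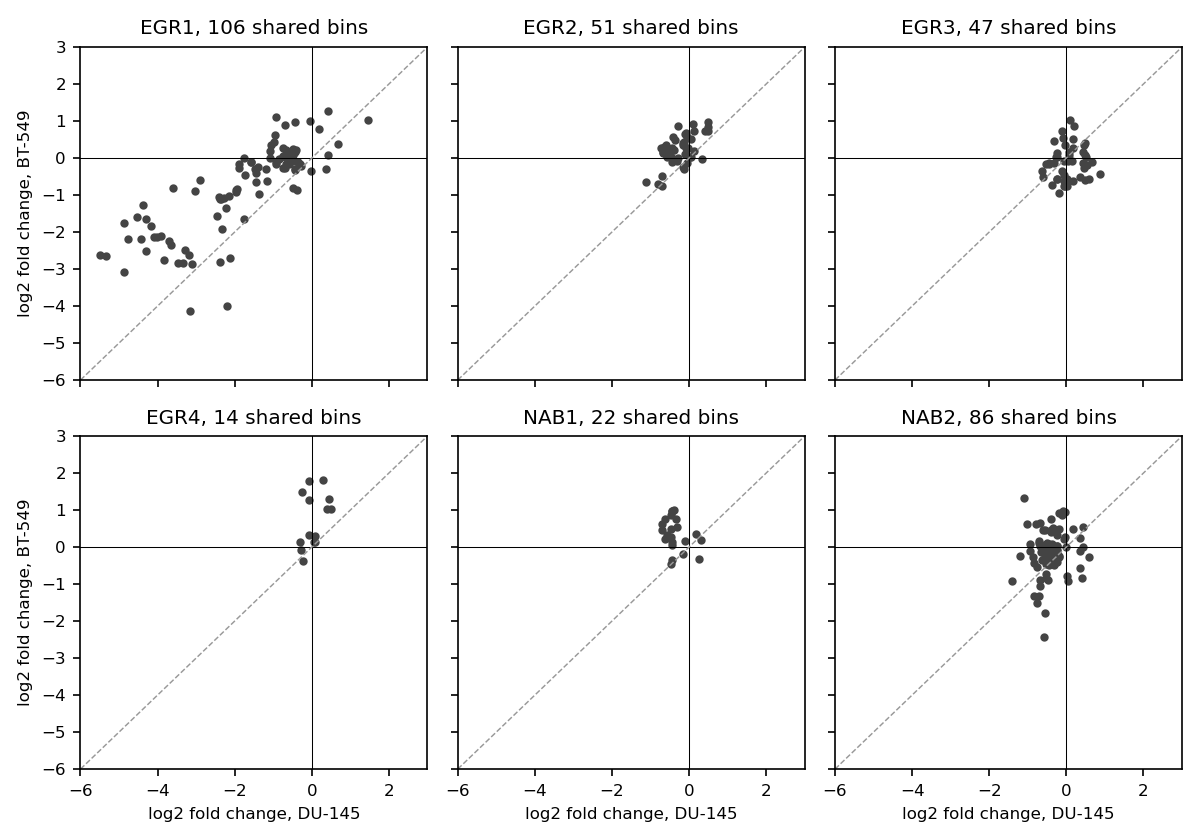
Log2 fold change (DOX over vehicle) in BT-549 against DU-145 cells for the bins that both tables hold, by gene; the dashed line marks equal change. EGR1 bins extend to losses below -2 in both lines and lie mostly above the dashed line there, and most NAB1 bins lie above zero in BT-549 and below zero in DU-145 cells.

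The lines also differed without DOX. Between the vehicle groups, 40.7% of the shared bins were higher and 21.4% lower in BT-549 than in DU-145 cells. All 14 shared EGR4 bins were lower in BT-549, and the bin at -202 bp was at 8.65 in DU-145 and 1.64 in BT-549 vehicle cells (log2 difference -2.36 ± 0.19, adjusted p = 1.32e-21). For EGR3, 33 of 47 bins were higher and 5 lower in BT-549 cells. EGR1 was more even, with 29 of 106 bins higher and 27 lower, and at +4871 bp the vehicle levels were 7.07 and 8.01. EGR2 had 5 of 51 bins higher and 20 lower, NAB2 19 of 86 and 27, and NAB1 3 of 22 in each direction.

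The genes around EGR1 signaling were then read at their promoters. Of 14 upstream regulators (MAP kinase components, SRF and its ETS partners, CREB1 and SP1), 7 fell and 0 rose in DU-145 cells, with a median log2 fold change of -0.28 against -0.17 over all promoters, of which 39.0% fell and 8.27% rose. With TMM factors, 4 fell and 2 rose, where 2639 of 14775 promoters fell and 2531 rose. CREB1, which binds cAMP response elements, had the smallest adjusted p (101 ± 8.82 to 46.3 ± 0.807, log2 fold change -1.13 ± 0.08, adjusted p = 4.73e-16), followed by ELK4 (-0.62, adjusted p = 6.26e-10), ELK1 (-0.63, adjusted p = 2.47e-07) and SP1 (-0.35, adjusted p = 1.05e-05). In BT-549 cells, 5 of the 14 rose and 0 fell (median 0.28 against 0.10), where 18.7% of all promoters rose and 6.69% fell. With TMM factors, 3 rose and 1 fell, where 1724 of 14050 promoters rose and 1460 fell. Among the 5 that rose with library sums were SP1 (0.54, adjusted p = 3.61e-05) and the kinase MAP2K2 (0.91, adjusted p = 1.91e-03).

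Of the other immediate-early genes, 16 of 22 fell and 0 rose in DU-145 cells (median -0.28 against -0.17), where 39.0% of all promoters fell and 8.27% rose. With TMM factors, 7 fell and 1 rose, where 2639 of 14775 promoters fell and 2531 rose. The nuclear receptor gene NR4A1 (-0.57, adjusted p = 9.22e-10), the phosphatase gene DUSP5 (-0.72, adjusted p = 3.90e-09), PHLDA1 (-0.53, adjusted p = 9.32e-09) and the survival gene MCL1 (-0.53, adjusted p = 8.73e-08) led by p-value. In BT-549 cells, 10 of 22 rose and 0 fell (median 0.24 against 0.10), where 18.7% of all promoters rose and 6.69% fell. With TMM factors, 9 rose and 0 fell, where 1724 of 14050 promoters rose and 1460 fell. KLF10 (0.60, adjusted p = 1.68e-07), ATF3 (0.69, adjusted p = 1.78e-06), the matricellular gene CCN1 (0.73, adjusted p = 7.54e-06) and KLF6 (0.57, adjusted p = 9.31e-05) led there.

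Genes known as EGR1 targets, among them FN1, which is also a mesenchymal marker above, were called in both directions in each line. Of 15 with promoter bins in DU-145 cells, 2 rose and 4 fell, where 8.27% and 39.0% of all promoters did (median -0.03 against -0.17). With TMM factors, 3 rose and 1 fell, where 2531 and 2639 of 14775 promoters did. The matrix gene FN1 rose (0.83, adjusted p = 3.04e-06) with PDGFA (0.48), and the angiogenic factor gene VEGFA (-0.45) and ID3 (-0.42) fell. In BT-549 cells, 6 of 15 rose and 2 fell, where 18.7% and 6.69% of all promoters did (median 0.33 against 0.10). With TMM factors, 4 rose and 2 fell, where 1724 and 1460 of 14050 promoters did. PLAU, the urokinase gene, rose (0.70, adjusted p = 1.16e-04) with ID3 (0.62) and SPRY1 (0.49), and FN1 fell (-0.73, adjusted p = 1.38e-03).

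**Figure D5:**
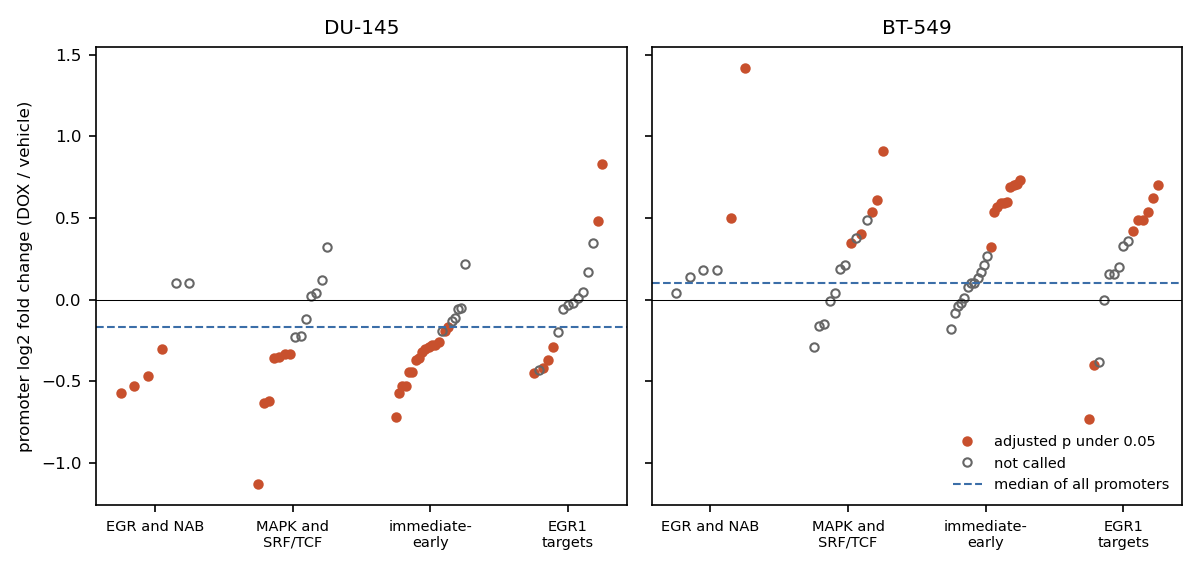
Promoter log2 fold change (DOX over vehicle) of the EGR and NAB genes and of 3 gene lists in DU-145 (left) and BT-549 cells (right). Each point is a gene, filled where the adjusted p was under 0.05, and the dashed line is the median of all promoters (-0.17 and 0.10); filled points of the first 3 groups lie below zero in DU-145 and above zero in BT-549 cells, although with TMM factors 2 upstream regulators and 1 other immediate-early gene rose in DU-145 and 1 upstream regulator fell in BT-549 cells.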

How the data were processed

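The labels give 2 cell lines, each with 3 vehicle and 3 DOX libraries. Per the labels and the methods of the study, the authors aligned the reads to GRCh38 with BWA, removed duplicates with Picard, called peaks per library with MACS2 2.2.7.1 at a q-value of 0.05, and divided regions found in at least 3 replicates into 100-bp bins. In the deposited tables a bin holds an estimated count, the fragment depth averaged over its bases, which was not normalized for depth. These values are not whole and were rounded before any count test. The peak lists of the authors give a fold enrichment ratio and a −log10 q-value. No shift of the reads for Tn5 is given in the sources used here.

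Each line was fitted with edgeR 4.0.16 (quasi-likelihood, robust, R 4.3.3) on all bins with a total of at least 10, with library sizes equal to the bin sums and Benjamini-Hochberg adjustment over all bins. Promoters were the summed bins within 1 kb of a TSS of each protein-coding gene and were fitted over all genes. Shared bins were fitted over 12 libraries for the interaction. The standard error is the size of the log2 fold change over the square root of the F value. In all, 12 libraries were used, whose depth, given by the bin sums in the text, limits the precision. The labels do not say whether replicates are separate cultures, and the study calls them biologically independent; p-values measure the spread between these libraries.

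The members and gene lists were chosen with earlier results of these data known. The text names all members, in each window and line the bin with the highest coverage and the opening and closing bin with the smallest adjusted p, the nearest genes of called bins, and up to 4 genes per list and line by smallest adjusted p, of which some are not reported here; bins named in the comparison of lines and the regions at ADO and STAT6 were chosen after their values were seen. Alternatives were TMM and RLE factors, no filter, the replicate block, DESeq2 1.42.0, limma-trend on log2(CPM + 1) with limma 3.58.1, a GC correction, 10 kb windows, promoters within 3 kb, regions in place of bins, the cutoffs of the study, each library left out and thinning to the smallest library, the last one added after the data were seen. The edgeR fits of bins, promoters and the interaction were tested on simulated data. Annotation was GENCODE v44 on GRCh38, the build of the files.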

Additional observations from a re-analysis of the deposited data

Results flagged for a closer look

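The gap test for an outlying library was not applied to groups of 3, and single libraries were examined by leaving each out. The DOX effect differed between the lines, by the interaction of line and DOX over the shared bins, at bins of 5 members, and the bin with the smallest adjusted p is given for each. At EGR1 the bin at +4871 bp fell in both lines, by 2.40 log2 units less in BT-549 than in DU-145 cells (adjusted p = 1.95e-03). At EGR2 the bin at -184 bp differed by 0.78 (adjusted p = 4.32e-03), from 18.5 to 12.6 in DU-145 and from 11.2 to 13.5 in BT-549 cells. At EGR4 the bin at -102 bp differed by 1.68 (adjusted p = 3.49e-04), from 7.50 to 7.71 in DU-145 and from 1.37 to 4.46 in BT-549 cells. At NAB1 the bin at +67 bp differed by 1.25 (adjusted p = 1.04e-03), from 4.22 to 3.34 in DU-145 and from 3.79 to 7.21 in BT-549 cells. At NAB2 the bin at -64 bp differed by 0.96 (adjusted p = 3.77e-03), from 8.01 to 6.45 in DU-145 and from 5.43 to 8.95 in BT-549 cells. The BT-549 DOX libraries were the shallowest of the series, and the part of depth in these differences was not tested.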

How the results depend on the processing

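The 155 closing member bins of DU-145 cells became 48 at the study cutoffs and 9 when whole regions replaced bins, and ranged from 121 to 161 with each library left out. The 7 opening ones became 4 with TMM or RLE factors, 0 with DESeq2 (limma-trend gave 7, and edgeR gave 193 of the 393 bins an unadjusted p under 0.05 in either direction), 2 after thinning, 4 in 10 kb windows, 0 at the study cutoffs and 3 as regions, and 4 to 7 with each library left out; they were 4 without vehicle replicate 2, DOX replicate 2 or DOX replicate 3. In BT-549 cells, the 31 closing bins became 18 with DESeq2, 20 after thinning and 3 as regions, and 22 to 29 with each library left out. The 12 opening ones became 7 with DESeq2, 7 with the GC trend removed, 6 after thinning, 5 at the study cutoffs and 2 as regions, and 7 to 13 with each library left out, with 7 without DOX replicate 3. There are fewer regions than bins, and the other causes were not tested. The member promoters called stayed at 4 in DU-145 and at 1 to 3 in BT-549 cells with each library left out. In DU-145 cells they became 3 with TMM factors, RLE factors or DESeq2, and 5 within 3 kb of a start. The 43 bins with a line-dependent DOX effect became 21 to 43, with 21 without BT-549 DOX replicate 2. At EGR1, the number of bins closing in both lines was 18 to 28 over the 9 fits that kept all libraries.

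Values of single bins and promoters kept their direction and side of the threshold in 474 of the alternatives, lost the call in 30 and gained it in 4. In the others the sign changed, each time without a call except for the DU-145 EGR3 promoter within 3 kb of a start. That promoter was at -0.27 (adjusted p = 0.0144), and between -0.06 (without DOX replicate 2) and 0.22 with each library left out, with -0.05 without vehicle replicate 2. In BT-549 cells the EGR3 promoter was at -0.05 with TMM or RLE factors or DESeq2 and -0.16 within 3 kb, and its bin at -1870 bp at -0.11 (without DOX replicate 1) to 0.16 with each library left out, -0.06 without vehicle replicate 1, -0.18 with the GC trend removed and -0.03 after thinning. The DU-145 EGR4 promoter was at -0.04 (without DOX replicate 3) to 0.18 with each library left out.

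The replicate numbers of vehicle and DOX libraries share only a number: same-numbered libraries deviated together with correlations of 0.0641, 0.083 and -0.0532 in DU-145 and 0.000459, 0.0446 and 0.0173 in BT-549 cells. With the replicate block, 160 bins were closing and 8 opening in DU-145, 28 and 12 in BT-549 cells, 4 and 2 promoters were called, and 47 bins had a line-dependent effect.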
